A study of Mus musculus with 18 samples.

Results

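Mouse hearts in the scar stage of healing, 14 days after myocardial infarction (MI), were set against sham-operated hearts. Of the 18 heart RNA-seq libraries in the series, 7 enter the comparison, chosen by their labels and not by any measured value: 3 libraries of MI day 14 hearts and 4 of sham hearts, with all 12988 genes of the deposited table. Every mouse behind these 7 libraries had been injected under the skin as a newborn with adeno-associated virus serotype 9 holding a control vector, so sham hearts carry the virus too. The operation came at 8 weeks of age: MI mice had the left anterior descending coronary artery tied off permanently, and sham mice had the same surgery with no ligature. The other libraries of the series are 4 of MI day 3 hearts with the same control vector, used here as a second reference, and those of MI hearts given a vector for the growth factor Fgf17. The labels name no strain, sex or promoter of the vector, no part of the heart, and no day after surgery for sham. Nor do they state that each library came from its own mouse, so p-values measure the spread between libraries, which may be technical.

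After an infarct, phagocytes clear the dead heart muscle and fibroblasts replace it with a collagen scar. Fibroblasts secrete collagens, glycoproteins and proteoglycans, and enzymes outside the cell trim, crosslink and degrade them. The surviving heart muscle cells shorten by sliding myosin along actin, and they normally draw most of their energy from fatty acids burned in mitochondria.

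Levels are FPKM, fragment counts divided by transcript length and by library size, as the authors deposited them. Read counts could not be recovered from these values. Library depth is therefore unknown, and no counting error accompanies the levels. Changes are differences in log2(FPKM + 0.5), MI day 14 minus sham, with standard errors and Benjamini-Hochberg adjusted p-values from limma over 12052 genes that reached 1 FPKM in at least 3 of the 18 libraries. A gene rose or fell where its adjusted p was under 0.05. The added 0.5 FPKM understates the change of genes with low levels. The summed FPKM of the 7 libraries lay between 327202 and 362004. Libraries correlated at Pearson r 0.981 to 0.982 within MI day 14 and 0.983 to 0.986 within sham, against 0.920 to 0.955 between the groups, across genes on the log2 scale. The first principal component held 74.0% of the variance and placed MI libraries 1, 2 and 4 at -52.4, -42.6 and -29.5, with the sham libraries between 29.4 and 32.2. MI library 4 thus lay nearest to sham. Genes encoded in mitochondrial DNA took 27.4%, 29.1% and 35.1% of the summed FPKM in MI day 14 libraries 1, 2 and 4, against 41.7%, 38.1%, 35.6% and 36.2% in sham libraries 1, 2, 4 and 5. The mean difference was -7.37 percentage points, with p = 0.0571 in a two-sided exact permutation test. That test doubled the smaller tail, and 0.0571 is the smallest p it can give for 3 against 4 libraries. Between 41 and 74 genes of the table were listed at 0 in an MI day 14 library, against 188 to 214 in a sham library.

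Of 12052 tested genes 6025 differed between MI day 14 and sham hearts, which is 50.0%. Of these, 4940 were higher in MI day 14 hearts, 41.0% of the genes tested, and 1085 were lower, 9.00% of the genes tested. These shares are the background for every count of list members below. Large changes were nearly all rises: 158 genes rose by more than 2 on the log2 scale and 4 fell by more than that. MI libraries alone can meet the filter of 1 FPKM in 3 libraries, so genes near 0 in sham could enter through the groups where they are high. With no filter 5249 genes were higher and 1104 lower. A filter at 5 FPKM gave 2783 higher and 932 lower, so that rises were 74.9% of the called genes. The balance of rises and falls moved with the scaling. With median-of-ratios scaling, which sets the typical gene at no change, 2977 genes (24.7%) were higher and 2688 (22.3%) lower, so that rises were 52.6% of the called genes in place of 82.0%. The median of all tested genes was 0.25 on the log2 scale as deposited and 0.01 with that scaling, so a rise of about that median is not a rise relative to the typical gene. Every one of the 1085 genes called lower as deposited was also called lower with median-of-ratios scaling, and 85 called genes changed sign.

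Cthrc1, a secreted glycoprotein of activated fibroblasts, stood at 39.5, 26.4 and 25.4 FPKM in the MI day 14 libraries, against 0.518, 0.101, 0.122 and 0.0789 FPKM in the sham libraries. No MI library came near a sham library, and the log2 change of 5.47 ± 0.21 (SE; limma adjusted p = 5.06e-11) was the largest rise among genes with a mean of at least 5 FPKM in either group and no overlap between the groups. C1qtnf3, a secreted relative of complement C1q and adiponectin, was at 20.1, 15.3 and 20.8 FPKM in MI day 14 hearts, against a listed 0 in 3 sham libraries and 0.0487 FPKM in sham library 5, a log2 change of 5.22 ± 0.25. Sfrp2, a secreted protein that binds Wnt ligands, was at 95.1, 73.0 and 68.1 FPKM, against 2.16, 1.69, 2.13 and 2.16 FPKM in sham (4.96 ± 0.28). In the same range of change were Comp, an organiser of collagen fibrils in cartilage and tendon (4.59 ± 0.38), Postn, periostin of activated fibroblasts (4.46 ± 0.26), Ltbp2, a microfibril protein (4.16 ± 0.32), and Fn1, fibronectin (4.09 ± 0.23). Further names among the 20 largest rises were Cilp (3.89 ± 0.41), a cartilage intermediate layer protein, Angptl7 (3.84 ± 0.37), and Thbs4, a thrombospondin (3.63 ± 0.41). Emp1, an epithelial membrane protein, was at 112, 88.5 and 65.4 FPKM in MI day 14 hearts, against 2.76, 2.64, 1.70 and 18.6 FPKM in sham. Sham library 5 thus stood far above the other sham libraries for Emp1, and its change was 4.25 ± 0.65 with that library and 4.94 without it.

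Collagen triple helices are built from chains in which glycine recurs at the first place of each residue triplet. In the longest reading frame of their GENCODE transcripts, 7 of the 20 largest rises held a run of at least 10 triplets that each begin with a glycine codon. The runs were 344 triplets in Col3a1, 339 in Col1a2 and 338 in Col1a1, the chains of collagens III and I. Shorter runs stood in Col8a1 (61 triplets), C1qtnf3 (23), Eln (17), which encodes elastin, and Cthrc1 (12). The other 13 of these rises had runs of at most 3 triplets. Runs were counted in these 20 genes only, so no share over all tested genes stands beside the 7. Whether a run forms a triple helix was not tested.

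Cyp1a1 and Mid1ip1 were among the leading falls by the same rule. Cyp1a1, a cytochrome P450 that the aryl hydrocarbon receptor induces, was at 1.45, 0.415 and 1.74 FPKM in MI day 14 hearts, against 10.8, 12.95, 19.5 and 10.03 FPKM in sham hearts (-3.07 ± 0.41, adjusted p = 1.15e-05). Its lowest sham library was above its highest MI library. Mid1ip1, which promotes the polymerisation of acetyl-CoA carboxylase, was at 11.2, 8.34 and 12.6 FPKM, against 55.4, 56.4, 25.5 and 62.4 FPKM in sham (-2.11 ± 0.52), with sham library 4 well under the other sham libraries. Further falls were Inmt, an indolethylamine methyltransferase (-2.08 ± 0.40), Calr3, a calreticulin (-1.58 ± 0.16), Ptgds, a prostaglandin D synthase (-1.50 ± 0.19), Ephx2, the soluble epoxide hydrolase (-1.44 ± 0.11), Ppp1r3b, a glycogen-targeting subunit of protein phosphatase 1 (-1.41 ± 0.15), and P2ry1, an ADP receptor (-1.32 ± 0.16). Lgals4, Cdip1 and Rprd1b also fell, by log2 changes of -1.47 ± 0.27, -1.35 ± 0.20 and -1.49 ± 0.47. Sham library 2 lay close to the MI libraries for Rprd1b, at 1.74 FPKM against 6.19, 5.62 and 7.03 FPKM in the other sham libraries, while the MI libraries lay between 1.298 and 1.354 FPKM.

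**Figure D1:**
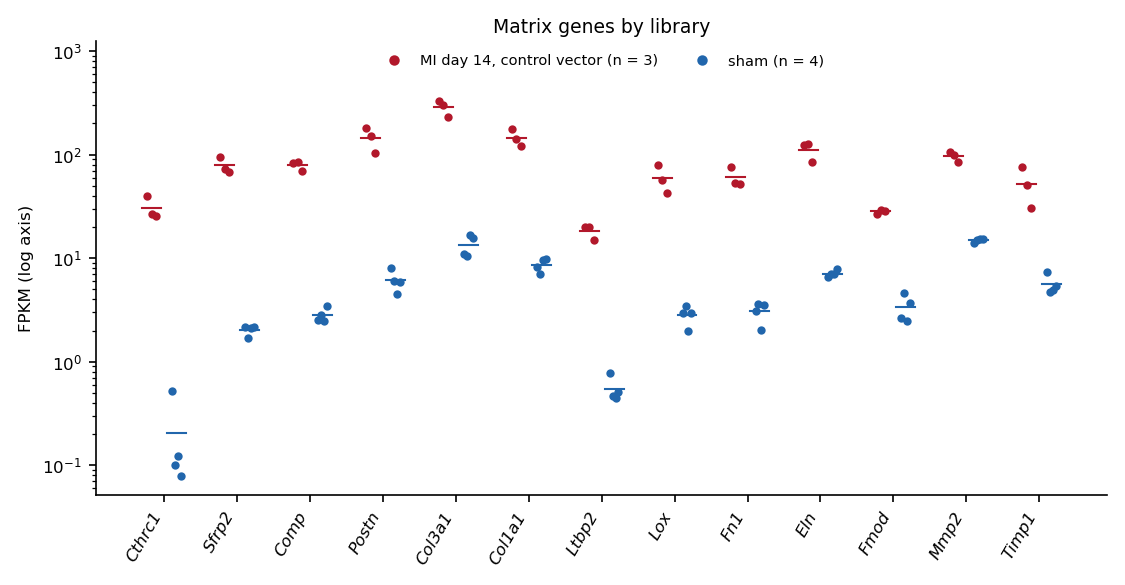
FPKM on a log axis of 13 matrix genes in each MI day 14 library (red, n = 3) and each sham library (blue, n = 4), with a bar at each group's mean. Every red point lies above every blue point of its gene, and the gap is widest for Cthrc1, where sham library 1, at 0.518 FPKM, sits above the other sham libraries.

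Promoters of the genes with the steepest changes are shown because these genes head each direction. RefSeq windows on GRCm38.p6, from 250 bases before to 50 bases after the start site, were available by symbol for 9365 of the 12052 tested genes. The windows of the first 2 rises and the first 2 falls held there follow, 5′ to 3′ on the plus strand, and capitals mark matches, on either strand, to any motif searched. C1qtnf3 lies at chr15:10952082-10952381, Sfrp2 at chr3:83766071-83766370, Cyp1a1 at chr9:57697363-57697662 and Mid1ip1 at chrX:10717115-10717414.
C1qtnf3: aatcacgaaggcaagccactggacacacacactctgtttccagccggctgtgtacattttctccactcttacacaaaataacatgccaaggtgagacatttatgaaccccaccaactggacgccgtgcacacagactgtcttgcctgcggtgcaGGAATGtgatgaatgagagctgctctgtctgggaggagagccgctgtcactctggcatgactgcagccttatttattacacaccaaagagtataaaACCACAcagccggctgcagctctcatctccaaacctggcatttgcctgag
Sfrp2: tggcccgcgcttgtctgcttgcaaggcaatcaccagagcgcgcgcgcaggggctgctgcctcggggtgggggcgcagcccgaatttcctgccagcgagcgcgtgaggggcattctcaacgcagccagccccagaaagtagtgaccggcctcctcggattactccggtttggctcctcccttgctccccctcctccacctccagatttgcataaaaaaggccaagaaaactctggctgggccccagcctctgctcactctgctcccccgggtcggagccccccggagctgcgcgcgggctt
Cyp1a1: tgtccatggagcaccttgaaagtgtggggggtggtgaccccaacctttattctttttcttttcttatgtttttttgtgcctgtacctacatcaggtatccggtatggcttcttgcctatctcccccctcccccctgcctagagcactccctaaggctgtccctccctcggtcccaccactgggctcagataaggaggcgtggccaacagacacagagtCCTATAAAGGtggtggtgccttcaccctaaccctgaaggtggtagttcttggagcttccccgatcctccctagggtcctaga
Mid1ip1: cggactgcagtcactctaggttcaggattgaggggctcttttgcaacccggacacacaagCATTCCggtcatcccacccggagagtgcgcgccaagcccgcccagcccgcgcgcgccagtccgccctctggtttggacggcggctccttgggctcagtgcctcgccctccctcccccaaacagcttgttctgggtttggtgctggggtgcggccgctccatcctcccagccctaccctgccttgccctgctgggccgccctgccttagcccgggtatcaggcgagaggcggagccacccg
The motifs were AP-1 (TGANTCA), TEAD (GGAATG), the element of the estrogen-related receptor ERR (TCAAGGTCA), the E-box (CACGTG), RUNX (TGTGGT), the nuclear receptor hexamer (AGGTCA, which lies within the ERR element), the CArG box and the MEF2 box. C1qtnf3 held a TEAD match at bases 155 to 160 and a RUNX match at bases 251 to 256, Mid1ip1 a TEAD match at bases 61 to 66, Cyp1a1 a CArG box match at bases 219 to 228, and Sfrp2 none. The RefSeq start of Cyp1a1 lies 9685 bases, and that of Mid1ip1 2352 bases, from the gene's 5′ end in the deposited table. TEAD letters occurred in 12.4% of 3813 promoters of genes that rose, 12.0% of 844 of genes that fell and 11.8% of all 9365. AP-1 letters occurred in 5.69%, 6.64% and 4.91% of the same groups, and the nuclear receptor hexamer in 11.3%, 15.5% and 12.1%. A match describes the letters and marks no binding site.

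Fibrillar collagens, the tensile rods of scar, rose in 8 of 8 tested members, with a median log2 change of 3.09, against 0.25 for all tested genes. Col3a1, which encodes collagen III, was at 327, 298 and 230 FPKM in MI day 14 hearts, against 10.9, 10.6, 16.6 and 15.6 FPKM in sham hearts (4.37 ± 0.19, adjusted p = 1.76e-10). Col1a1 was at 175, 143 and 120 FPKM, against 8.20, 6.99, 9.56 and 9.86 FPKM in sham (3.99 ± 0.20), and Col1a2 and Col5a2 changed by 3.78 ± 0.16 and 3.41 ± 0.19. The groups were far apart for each of these genes, with MI library 4 the lowest of the MI libraries. Col11a1, a minor fibrillar chain best known from cartilage, was at 3.92, 2.09 and 2.54 FPKM, against 0.0207, 0.0310, 0 and 0.0583 FPKM in sham (2.63 ± 0.18). Together the list took 0.194 ± 0.0393% of the summed FPKM in MI day 14 hearts and 0.0120 ± 0.00210% in sham hearts (SD, n = 3 and 4), a ratio of 16.1. In bulk tissue, more or fewer cells of a type and more or less RNA per cell cannot be told apart, here and for every cell type below.

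Network, basement membrane and fibril-associated collagens rose with them. Of 10 basement membrane and network chains 10 rose, with a median of 1.66, and of 10 other collagens 8 rose, with a median of 2.06. Col8a1, a short-chain network collagen of vessels, was at 113, 97.7 and 60.03 FPKM in MI day 14 hearts, against 6.87, 4.78, 4.85 and 5.95 FPKM in sham (3.85 ± 0.24). Col4a1, the main basement membrane chain, was at 179, 217 and 128 FPKM, against 43.9, 43.1, 43.3 and 45.6 FPKM in sham (1.94 ± 0.18). Both genes were higher in each MI library than in any sham library, with Col8a1 the more changed and Col4a1 the more abundant per length in sham. Col14a1 and Col12a1, which sit on fibril surfaces, changed by 3.13 ± 0.20 and 2.94 ± 0.20, and Col6a1 and Col6a2, microfibrillar collagen VI, by 2.30 ± 0.15 and 2.26 ± 0.17.

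Of 28 tested genes that fold, process and crosslink collagen, 24 rose, with a median of 1.05. Lox, the lysyl oxidase that crosslinks collagen and elastin, was at 79.3, 56.4 and 42.1 FPKM in MI day 14 hearts, against 2.95, 3.49, 1.997 and 2.94 FPKM in sham (4.13 ± 0.22, adjusted p = 1.08e-09). Loxl2, a related oxidase, changed by 2.54 ± 0.16, Adamts2, which removes the amino-terminal propeptide of procollagen, by 2.96 ± 0.18, and Pcolce, an enhancer of the carboxy-terminal cleavage, by 1.96 ± 0.14. Serpinh1, the collagen chaperone, did not pass: it was at 114, 79.0 and 178 FPKM, against 103, 93.4, 70.0 and 41.2 FPKM in sham (0.69 ± 0.41, adjusted p = 0.181), and its groups overlapped.

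The proteoglycans and cartilage-type proteins of the matrix were higher as well. All 13 tested small leucine-rich proteoglycans, which coat and space collagen fibrils, rose, with a median of 1.46. Lum, lumican, was at 222, 167 and 144 FPKM in MI day 14 hearts, against 27.5, 26.2, 26.9 and 31.8 FPKM in sham (2.62 ± 0.16), and Aspn, asporin, at 201, 167 and 168 FPKM, against 23.2, 18.9, 16.8 and 19.2 FPKM (3.16 ± 0.21). Both were several times as high in each MI library as in any sham library. Bgn, biglycan, and Prelp changed by 2.52 ± 0.14 and 1.92 ± 0.15, and Fmod, fibromodulin, by 2.94 ± 0.33. Of 14 tested cartilage and tendon matrix genes 9 rose, with a median of 1.39. Comp was at 82.6, 84.2 and 69.8 FPKM, against 2.51, 2.82, 2.45 and 3.43 FPKM in sham hearts. Mgp, an inhibitor of calcification, was at 575, 511 and 412 FPKM, against 147, 133, 123 and 171 FPKM in sham (1.79 ± 0.14). Tnmd, tenomodulin of tendon, was at 2.03, 2.94 and 3.97 FPKM, against 0.103, 0.0971, 0 and 0.232 FPKM in sham (2.49 ± 0.20), and was highest in MI library 4, unlike the collagens. Matn2, a matrilin, changed by 1.98 ± 0.16.

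Elastic fibre genes rose in 18 of 19 tested cases, with a median of 1.56. Eln, elastin, was at 124, 126 and 84.8 FPKM in MI day 14 hearts, against 6.52, 7.05, 6.98 and 7.88 FPKM in sham (3.86 ± 0.31, adjusted p = 6.60e-08). Mfap4, which binds elastic microfibrils, and Fbn1, fibrillin of the microfibril core, changed by 3.74 ± 0.27 and 2.82 ± 0.19. Matricellular genes, whose products signal to cells from within the matrix, rose in 19 of 20 tested cases, with a median of 2.13. Sparc, a collagen-binding glycoprotein, was at 722, 593 and 485 FPKM, against 100, 89.8, 82.9 and 93.9 FPKM in sham (2.69 ± 0.14). Postn was at 181, 152 and 104 FPKM, against 7.98, 5.98, 4.50 and 5.94 FPKM in sham, and Tnc, tenascin C, at 6.34, 4.65 and 4.42 FPKM, against 0.240, 0.270, 0.132 and 0.194 FPKM (2.98 ± 0.16). No groups overlapped for Sparc, Postn and Tnc, and MI library 1 was the highest for each of these. The list took 0.521 ± 0.106% of the summed FPKM in MI day 14 hearts and 0.107 ± 0.00673% in sham hearts (SD, n = 3 and 4).

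Enzymes that degrade matrix and their inhibitors rose together, in 26 of 33 tested cases, with a median of 1.03. Mmp2, a gelatinase made by fibroblasts, was at 105, 98.2 and 85.5 FPKM in MI day 14 hearts, against 14.0, 15.0, 15.4 and 15.2 FPKM in sham (2.65 ± 0.15, adjusted p = 2.49e-09). Mmp14, the membrane protease that activates pro-Mmp2, changed by 1.92 ± 0.12, and Mmp23 by 2.18 ± 0.17. Of the inhibitors, Timp1 was at 75.6, 50.6 and 30.7 FPKM, against 7.36, 4.76, 4.95 and 5.35 FPKM in sham (3.04 ± 0.25), and Timp2 at 114, 100 and 92.7 FPKM, against 28.3, 34.4, 30.0 and 32.2 FPKM (1.70 ± 0.12). Mmp9, the gelatinase of neutrophils and macrophages, was at 0.940, 0.552 and 0.0978 FPKM, against 0.196, 0.371, 0.422 and 0.631 FPKM in sham, and did not pass (0.12 ± 0.37, adjusted p = 0.811). Cell-matrix receptors and laminins were less uniform: 15 of 24 rose, with a median of 0.72, among them Itga11, a collagen receptor of fibroblasts (2.15 ± 0.23), Lama2 (1.24 ± 0.13), Lamc1 (1.19 ± 0.11) and Lama4 (0.88 ± 0.08). Under median-of-ratios scaling 13 of these 24 rose and 2 fell.

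**Figure D2:**
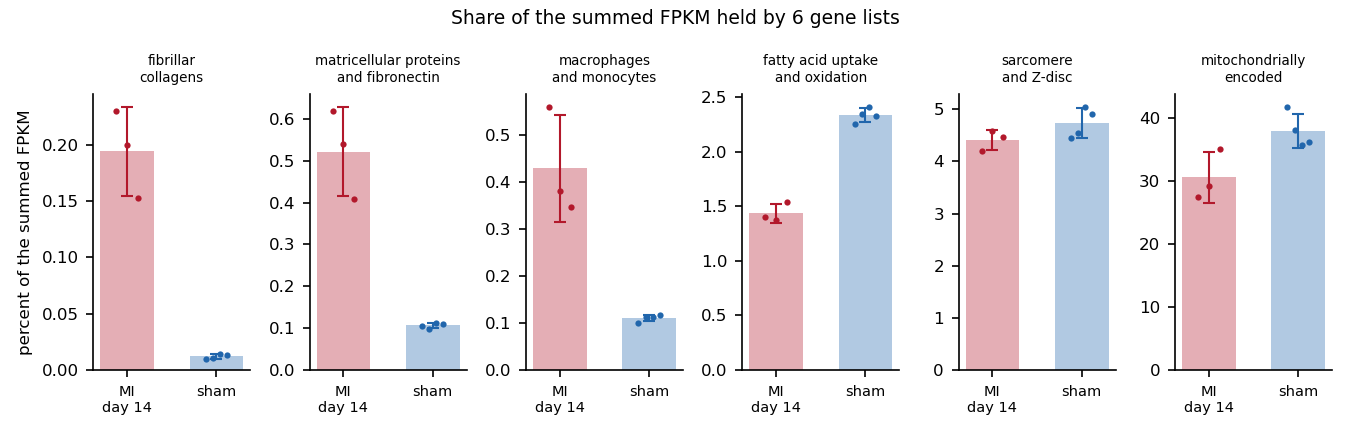
Percent of the summed FPKM held by 6 gene lists in MI day 14 hearts (red, n = 3) and sham hearts (blue, n = 4). Bars are group means, error bars 1 SD and points libraries, each panel on its own axis from 0. Fibrillar collagens averaged 0.194% in MI day 14 hearts and 0.0120% in sham hearts, while sarcomere genes averaged 4.41% and 4.74% and overlapped.

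Of 38 tested genes of the TGF-beta, activin and BMP axis 27 rose and 0 fell, with a median of 0.75, and under median-of-ratios scaling 22 rose and 3 fell. Of the ligands, Tgfb3 was at 29.9, 23.6 and 23.8 FPKM in MI day 14 hearts, against 5.64, 6.56, 5.65 and 7.79 FPKM in sham (1.93 ± 0.18), and Tgfb1 at 8.87, 8.87 and 8.11 FPKM, against 3.80, 5.04, 4.12 and 3.99 FPKM (0.95 ± 0.10). Tgfb2 rose by less (0.49 ± 0.17, adjusted p = 0.0209), and was no longer called under median-of-ratios scaling (0.24, adjusted p = 0.267) and without MI library 1 or 2 or sham library 5 (adjusted p = 0.0519, 0.121 and 0.0607). Tgfbr1, the type I receptor, changed by 1.33 ± 0.13. Of the secreted antagonists and feedback genes, Fstl1 was at 241, 201 and 137 FPKM, against 25.5, 26.5, 22.5 and 27.6 FPKM in sham (2.86 ± 0.16), while Fst, the activin-binding follistatin, changed by 1.91 ± 0.17 and Pmepa1, a brake on Smad signalling, by 1.58 ± 0.13.

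Secreted modulators led the Wnt list, where 20 of 27 rose, 2 fell and the median was 0.65. Besides Sfrp2, Sfrp1 was at 46.6, 35.1 and 29.1 FPKM in MI day 14 hearts, against 3.61, 3.68, 4.45 and 4.32 FPKM in sham (3.03 ± 0.16), and Frzb, a further secreted frizzled-related protein, changed by 3.13 ± 0.18. Fzd1, a receptor, changed by 1.57 ± 0.14. The falls were Sfrp5, at 0.419, 0.817 and 0.717 FPKM, against 2.08, 2.08, 3.88 and 2.09 FPKM in sham (-1.37 ± 0.31), and the receptor gene Lgr6 (-0.63 ± 0.14). Members of one secreted family thus lay on opposite sides of sham. In the insulin-like growth factor list 10 of 15 rose and 1 fell, with a median of 0.91. Its rises included Igf1 itself (1.26 ± 0.14) and the binding proteins Igfbp7 (2.31 ± 0.15), Igfbp2 (1.81 ± 0.21) and Igfbp3 (1.04 ± 0.14). The fall was Insr, the insulin receptor, at 2.64, 10.9 and 10.9 FPKM, against 15.9, 16.7, 15.0 and 16.0 FPKM in sham (-1.14 ± 0.30), with MI library 1 far below the other MI libraries. Without MI library 1 its change was -0.52 (adjusted p = 8.57e-04).

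Of 24 platelet-derived and vascular growth factor genes 17 rose and 2 fell, with a median of 0.51. With median-of-ratios scaling 12 rose and 4 fell, with a median of 0.26. Apln, apelin of sprouting vessel tips, was at 11.8, 9.08 and 6.39 FPKM in MI day 14 hearts, against 1.42, 0.767, 1.43 and 1.90 FPKM in sham (2.35 ± 0.23). Vegfd (1.43 ± 0.16), the receptor Nrp2 (1.25 ± 0.12) and Angpt2 (1.195 ± 0.149), which loosens vessel walls, also rose. Vegfa, the principal endothelial growth factor, fell (38.9, 33.8 and 40.6 FPKM, against 51.7, 50.9, 59.3 and 52.0 FPKM in sham; -0.50 ± 0.10), as did Angpt1, the stabilising counterpart of Angpt2 (-0.59 ± 0.20), which lost the call without MI library 1 or 2 or sham library 4 (adjusted p = 0.0633, 0.0738 and 0.0539). Among 18 angiotensin, endothelin and natriuretic receptor genes 8 rose and 2 fell, with a median of 0.28, close to the 0.25 of all tested genes. With median-of-ratios scaling 6 rose and 3 fell, with a median of 0.02. Ace, the angiotensin-converting enzyme, was at 41.3, 40.7 and 33.1 FPKM, against 8.03, 7.59, 8.09 and 7.83 FPKM in sham (2.20 ± 0.14, adjusted p = 7.89e-09), and its libraries were tight within both groups. Calcrl, the adrenomedullin receptor, and Ece1, the endothelin-converting enzyme, rose by 0.86 ± 0.13 and 0.60 ± 0.09. Corin, the protease that activates the atrial peptide, fell (-0.63 ± 0.10), and so did the receptor Agtr1a (-0.74 ± 0.21; adjusted p = 0.0674 without MI library 1).

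Of 15 genes of the gp130 cytokine axis 7 rose and 1 fell, and with median-of-ratios scaling 3 rose and 2 fell. The rises included Il6ra (0.96 ± 0.13), Osmr, the oncostatin M receptor (0.64 ± 0.15), and the feedback gene Socs3 (0.66 ± 0.18), the last pair losing the call with that scaling (adjusted p = 0.0539 and 0.0562). Without MI library 1 the count of rises was 4. Cntf was listed at 0, 1.94 and 0 FPKM, against 3.65, 2.93, 1.61 and 2.07 FPKM in sham (-1.81 ± 0.47, and -2.57 without MI library 2), and its groups overlapped. Of 16 genes of FGF receptor feedback 10 rose and 2 fell, with a median of 0.54. Under median-of-ratios scaling 8 rose and 2 fell, with a median of 0.31. Among the rises were Fgfr1 by 1.08 ± 0.13, Spry1 by 1.04 ± 0.14, Spred1 by 0.89 ± 0.09 and Etv5 by 0.73 ± 0.11, and the lowest change in the list was -0.94. The share of the summed FPKM held by this list overlapped between groups, at 0.0257% in MI library 4 and 0.0276% in sham library 4. Fgf17, the cargo of the vector given to other groups, was listed at 0.254, 0 and 0 FPKM in MI day 14 hearts and at 0 in every sham library.

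**Figure D3:**
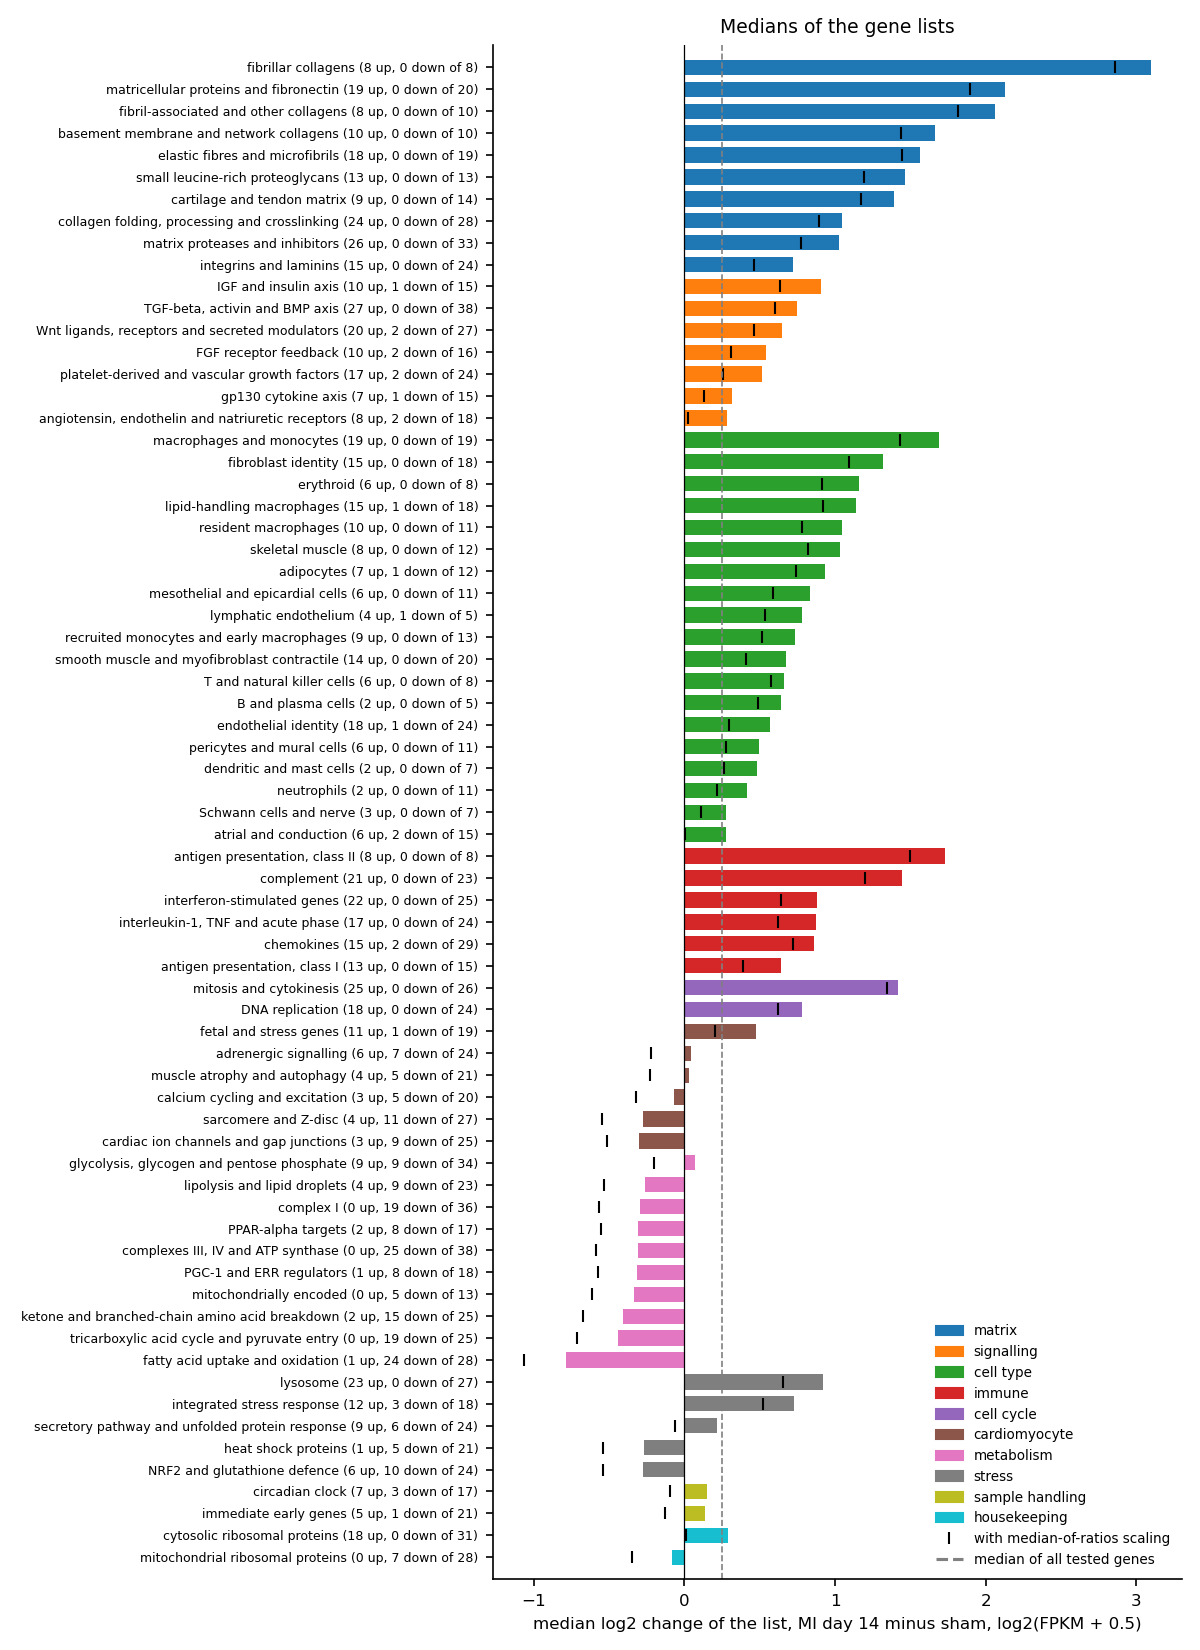
Median log2 change, MI day 14 minus sham, of each gene list with at least 5 tested members, coloured by theme, with the counts of members that rose and fell beside each name. The dashed line is the median of all tested genes, 0.25, and the black ticks are the medians with median-of-ratios scaling. Matrix lists reach 3.09, and fatty acid uptake and oxidation reaches -0.79.

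The markers of several cell types were read next. Whether cells of another type also made a marker was not tested, for members that rose or fell. Fibroblast markers rose in 15 of 18 tested cases, with a median of 1.32. Pi16, of adventitial fibroblasts, was at 41.5, 42.6 and 31.4 FPKM in MI day 14 hearts, against 7.07, 6.32, 6.87 and 8.78 FPKM in sham (2.33 ± 0.16), and Thy1, Cd248 and Vim changed by 1.85 ± 0.16, 1.55 ± 0.13 and 1.44 ± 0.12. Fap, of activated fibroblasts, changed by 1.35 ± 0.12, and the lineage markers Tcf21 and Pdgfra by 1.0005 ± 0.1205 and 0.78 ± 0.12. Gsn, at 433, 437 and 494 FPKM, against 356, 351, 406 and 409 FPKM in sham, did not pass (0.26 ± 0.15, adjusted p = 0.163). Contractile genes of smooth muscle and myofibroblasts rose in 14 of 20 cases, and in 9 with median-of-ratios scaling, with a median of 0.67. Their leading rises were cytoskeletal genes that other cells also use, namely Actn1 (1.65 ± 0.14), Tpm4 (1.28 ± 0.12), Cnn3 (1.23 ± 0.09) and Tagln2 (0.98 ± 0.12). Acta2, smooth muscle actin and the usual myofibroblast marker, was at 161, 147 and 121 FPKM, against 93.5, 103, 123 and 132 FPKM in sham, and did not pass (0.35 ± 0.15, adjusted p = 0.0685), though it did without MI library 4 or sham library 5 (0.0321 and 0.0378). Its groups overlapped. Of 11 pericyte markers 6 rose, and 4 with median-of-ratios scaling or without MI library 1 or 2, among them Mcam (1.13 ± 0.13), Rgs4 (0.91 ± 0.12), Pdgfrb (0.86 ± 0.17) and Vtn (0.60 ± 0.11).

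Endothelial markers rose in 18 of 24 cases and fell in 1, with a median of 0.57, or rose in 14 and fell in 2 under median-of-ratios scaling. Cdh5, the junctional cadherin, was at 90.6, 89.6 and 78.7 FPKM in MI day 14 hearts, against 50.7, 49.8, 47.8 and 50.8 FPKM in sham (0.79 ± 0.09), and Pecam1 at 62.5, 57.3 and 57.4 FPKM, against 39.5, 49.5, 34.3 and 37.2 FPKM (0.56 ± 0.10). Esam, Vcam1 and the water channel Aqp1 changed by 0.86 ± 0.13, 0.79 ± 0.12 and 0.85 ± 0.13. The fall as deposited was Cd36, a fatty acid transporter that heart muscle cells also make (-0.62 ± 0.18). Of 5 lymphatic markers 4 rose, including Pdpn (1.55 ± 0.18), Flt4 (0.78 ± 0.13) and Mmrn1 (0.78 ± 0.17), and Prox1, which heart muscle cells express too, fell (-0.71 ± 0.15).

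All 19 tested macrophage and monocyte markers rose, with a median of 1.69. Ctss, a lysosomal protease of phagocytes, was at 213, 152 and 128 FPKM in MI day 14 hearts, against 26.8, 25.7, 25.5 and 26.1 FPKM in sham (2.60 ± 0.14, adjusted p = 1.08e-09). Mpeg1, Fcer1g and Laptm5 changed by 2.55 ± 0.18, 1.92 ± 0.13 and 1.76 ± 0.11, and Cd68 was at 27.9, 17.7 and 22.998 FPKM, against 4.59, 9.41, 5.98 and 7.43 FPKM in sham (1.69 ± 0.23). The list took 0.429 ± 0.114% of the summed FPKM in MI day 14 hearts and 0.111 ± 0.00716% in sham hearts (SD, n = 3 and 4), and MI library 1 was the highest. Resident macrophage genes rose in 10 of 11 cases, with a median of 1.05: Stab1 by 1.42 ± 0.16, Mrc1 by 1.301 ± 0.142 and Gas6 by 1.12 ± 0.13. The exception was Timd4, a marker of long-lived resident cells, at 2.68, 1.85 and 2.12 FPKM, against 2.44, 2.38, 1.96 and 2.01 FPKM in sham (0.00 ± 0.20, adjusted p = 0.993). Genes of recruited monocytes rose in 9 of 13 cases, with a median of 0.73. The other 4 did not pass, the lowest of them at -1.07. For 1 member every MI library lay below every sham library. Ccr2, the monocyte chemokine receptor, was at 7.26, 4.99 and 3.29 FPKM, against 0.916, 0.963, 0.988 and 1.13 FPKM in sham (1.86 ± 0.29), and Plac8 and Vcan changed by 2.36 ± 0.34 and 1.97 ± 0.19. Arg1 was at 6.30, 1.304 and 1.60 FPKM, against 0.237, 0.0584, 0.0511 and 0 FPKM (2.35 ± 0.41, and 1.75 without MI library 1, the highest). Lipid-handling macrophage genes rose in 15 of 18 cases, with Trem2 at 1.75 ± 0.17, Abca1 at 1.21 ± 0.10 and Ctsb at 0.93 ± 0.09. The member that fell was Lpl, which heart muscle makes too (-0.79 ± 0.11).

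Markers of other leukocytes were low in level. Of 11 neutrophil genes 2 passed, both low: Csf3r at 1.495, 1.31 and 0.757 FPKM, against 0.444, 0.221, 0.264 and 0.738 FPKM in sham (0.89 ± 0.30, adjusted p = 0.0226), and Mmp8 (0.66 ± 0.27, adjusted p = 0.0498). With median-of-ratios scaling none passed, with 0.0518 for Csf3r and 0.0875 for Mmp8, and none without MI library 1 or 2 or without sham library 2 or 4. The calprotectin gene S100a8 was at 8.28, 9.76 and 5.12 FPKM, against 6.18, 3.38, 2.78 and 10.2 FPKM, with overlapping groups (0.54 ± 0.45, adjusted p = 0.338). T and natural killer cell genes rose in 6 of 8 cases at low levels, and in 4 without MI library 1 or sham library 2, including Nkg7 (1.19 ± 0.31), Cd8b1 (1.08 ± 0.24), Gzma (0.96 ± 0.29; adjusted p = 0.0579 without MI library 1) and Il7r (0.74 ± 0.18). Of 19 listed genes 13 were in the deposited table and 8 were tested. The 8 summed to 1.87 to 2.47 FPKM in a sham library and 6.16 to 6.81 FPKM in an MI day 14 library. Genes this low in sham could meet the filter through MI libraries alone, so the filter itself favours members above sham. The count is therefore no test of the list. Of 5 B and plasma cell genes 2 rose, Jchain, the joining chain of secreted antibody, at 12.1, 5.14 and 6.80 FPKM, against 0.483, 0.104, 0.467 and 0.543 FPKM in sham (3.19 ± 0.69), and Cd79b (1.21 ± 0.32). Of 7 dendritic and mast cell genes 2 rose, Cd209a (1.51 ± 0.32) and Kit (1.12 ± 0.13).

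Antigen presentation and complement genes were higher in MI day 14 hearts too. All 8 tested class II genes rose, with a median of 1.73. H2-Ab1, a class II beta chain, was at 93.4, 79.8 and 80.3 FPKM in MI day 14 hearts, against 14.5, 13.3, 22.8 and 25.4 FPKM in sham (2.17 ± 0.27), and H2-Aa, H2-DMb1 and H2-DMb2 changed by 2.12 ± 0.26, 1.79 ± 0.23 and 1.38 ± 0.19. Class I genes rose in 13 of 15 cases by less, with a median of 0.64, and in 5 with median-of-ratios scaling and 6 without MI library 1. B2m was at 874, 721 and 762 FPKM, against 489, 493, 415 and 470 FPKM (0.75 ± 0.15), H2-D1 changed by 0.71 ± 0.14, Psmb8 by 0.80 ± 0.18 and Tapbp by 0.65 ± 0.14. Genes of the H2 families share sequence, and the assignment of their reads is uncertain. Complement genes rose in 21 of 23 cases, with a median of 1.45. C1qb, of the recognition subunit that macrophages make, was at 224, 140 and 142 FPKM, against 41.4, 44.2, 41.0 and 41.5 FPKM in sham (1.96 ± 0.15), and C1qa, C1qc and the receptor subunit Itgb2 changed by 1.78 ± 0.14, 1.65 ± 0.14 and 1.92 ± 0.15. Chemokine genes were mixed: 15 of 29 rose and 2 fell. Ccl8 was at 35.8, 15.2 and 17.2 FPKM, against 1.35, 1.94, 0.995 and 2.55 FPKM (3.34 ± 0.41), and the receptor Cxcr4 and the ligand Cxcl16 changed by 2.27 ± 0.17 and 1.174 ± 0.149. The falls were Ccl11, which draws eosinophils (-1.14 ± 0.29), and Ccl2, which draws monocytes, at 5.95, 3.76 and 3.23 FPKM, against 7.49, 4.94, 7.28 and 7.37 FPKM in sham (-0.62 ± 0.21), where the groups overlapped and the call was lost without MI library 2 or 4 or sham library 1 (adjusted p = 0.0770, 0.112 and 0.0517). Interferon-stimulated genes rose in 22 of 25 cases, with a median of 0.88, including Ifi27l2a (1.85 ± 0.19), Oas1a (1.73 ± 0.17), Bst2 (1.44 ± 0.17) and Oasl2 (1.42 ± 0.14). Of 24 interleukin-1, TNF and acute phase genes 17 rose, among them the decoy receptor Tnfrsf11b (1.90 ± 0.20), the receptors Tnfrsf1b (1.35 ± 0.14) and Tnfrsf1a (0.92 ± 0.11) and the inflammasome adaptor Pycard (1.20 ± 0.13).

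Cell division genes were low in level yet above sham in most cases. Mitosis and cytokinesis genes rose in 25 of 26 cases, with a median of 1.42, and DNA replication genes in 18 of 24, with a median of 0.78. Ccna2, a cyclin of S and G2 phase, was at 3.96, 3.19 and 1.92 FPKM in MI day 14 hearts, against 0.0624, 0.0324, 0.0971 and 0.0709 FPKM in sham (2.59 ± 0.15). Mki67 and Top2a, both markers of cycling cells, changed by 2.26 ± 0.16 and 2.26 ± 0.17, and Ube2c by 2.11 ± 0.15. Rrm2, a ribonucleotide reductase subunit, changed by 1.79 ± 0.15, and E2f1, Mcm5 and Uhrf1 by 1.56 ± 0.20, 1.34 ± 0.15 and 1.24 ± 0.15. MI library 4 was the lowest of the MI libraries for Ccna2, Mki67, Top2a and Ube2c. Lysosomal genes rose in 23 of 27 cases, with a median of 0.92, led by the cathepsin K gene Ctsk, a collagenase (3.14 ± 0.23). Under median-of-ratios scaling 18 of them rose and 2 fell.

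Heart muscle genes moved in both directions. Of 27 tested sarcomere and Z-disc genes 4 rose and 11 fell, with a median of -0.27, and with median-of-ratios scaling 2 rose and 19 fell. Without MI library 1 or 2, or sham library 2 or 4, 2 rose. Myh6, the adult alpha myosin heavy chain, was at 937, 1262 and 1369 FPKM in MI day 14 hearts, against 1502, 1697, 2004 and 1833 FPKM in sham (-0.57 ± 0.15, adjusted p = 0.00492). Tnnt2, cardiac troponin T, was at 527, 531 and 604 FPKM, against 795, 885, 901 and 772 FPKM (-0.60 ± 0.09), and Myom2, of the M band, and Ldb3, of the Z-disc, changed by -0.98 ± 0.16 and -0.53 ± 0.10. MI library 1 was the lowest for each of these genes. Acta1, skeletal actin, which the fetal heart uses, rose: it was at 382, 492 and 351 FPKM, against 167, 89.2, 110 and 240 FPKM in sham (1.51 ± 0.29). Myh7, the fetal beta myosin heavy chain of the mouse, did not. It was at 45.1, 86.9 and 79.2 FPKM, against 153, 123, 94.1 and 114 FPKM in sham, with no overlap (-0.81 ± 0.35, adjusted p = 0.0605). The adjusted p was 0.0165 under median-of-ratios scaling and 0.0179 when only the MI day 14 and sham libraries entered the fit.

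Fetal and stress genes of the heart rose in 11 of 19 cases and fell in 1, with 7 and 5 under median-of-ratios scaling. The single fall was lost without MI library 1 or 2 or without sham library 1, 2 or 5. Nppa, the atrial natriuretic peptide, was at 3383, 3365 and 2500 FPKM in MI day 14 hearts, against 2011, 1679, 1264 and 1672 FPKM in sham (0.90 ± 0.18, adjusted p = 4.52e-04). Nppb, the brain natriuretic peptide, was at 656, 700 and 488 FPKM, against 597, 400, 595 and 668 FPKM, with overlapping groups (0.13 ± 0.23, adjusted p = 0.672), and its sign turned with median-of-ratios scaling (-0.14) and without sham library 2 (-0.03). The peptides thus did not share a pattern. Sprr1a, a small proline-rich protein that gp130 cytokines induce in heart muscle, was at 10.6, 13.01 and 9.39 FPKM, against 0.936, 0.490, 0 and 0 FPKM in sham (3.88 ± 0.36). Gdf15, a stress cytokine, and Uchl1 changed by 2.19 ± 0.28 and 1.28 ± 0.24.

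Genes of calcium cycling rose in 3 and fell in 5 of 20 cases, with 2 and 11 under median-of-ratios scaling. Atp2a2, the calcium pump of the sarcoplasmic reticulum, was at 685, 789 and 862 FPKM in MI day 14 hearts, against 1025, 1163, 1159 and 1207 FPKM in sham (-0.55 ± 0.10). Hrc, a calcium-binding partner in the same compartment, and Cacnb2, a calcium channel subunit, changed by -0.75 ± 0.15 and -1.01 ± 0.19, and Fkbp1b, a partner of the release channel, rose at low levels (1.72 ± 0.31). Ryr2, the release channel, was at 23.2, 29.2 and 31.0 FPKM, against 31.1, 34.8, 33.2 and 35.5 FPKM, and did not pass (-0.28 ± 0.13, adjusted p = 0.0925, or 0.00390 under median-of-ratios scaling). Ion channels and gap junctions rose in 3 and fell in 9 of 25 cases, with 2 and 15 under that scaling. Kcnj5, a subunit of the acetylcholine-gated potassium channel, was at 9.24, 9.16 and 7.29 FPKM, against 20.3, 18.2, 21.1 and 34.7 FPKM in sham (-1.37 ± 0.24). The potassium channels Kcnk3 and Kcnj11 and the sodium channel subunit Scn4b changed by -0.91 ± 0.15, -0.90 ± 0.15 and -1.32 ± 0.26, and Kcne1 by 1.02 ± 0.20. Gja1, the main ventricular gap junction protein, was at 27.9, 21.7 and 29.6 FPKM, against 31.6, 40.6, 41.3 and 39.9 FPKM (-0.53 ± 0.20, adjusted p = 0.0374), and it lost the call without MI library 1 or 2 or without sham library 2, 4 or 5 (adjusted p = 0.0628, 0.167, 0.0750, 0.0782 and 0.0717). Adrenergic genes rose in 6 and fell in 7 of 24 cases, with 3 falls without MI library 1 and 4 without sham library 4 or 5. The rises were led by Arrb2 (1.10 ± 0.15), Pde3b (0.85 ± 0.14), Gnai3 (0.76 ± 0.13) and Gnai2 (0.72 ± 0.10), and Adrb1, the main cardiac beta receptor, fell (-0.50 ± 0.19), though not without MI library 1 or sham library 4 or 5 (adjusted p = 0.169, 0.0943 and 0.0999). Of 21 atrophy and autophagy genes 4 rose and 5 fell, with 2 and 10 under median-of-ratios scaling: Bnip3, a mitophagy receptor, changed by -1.10 ± 0.15, Trim54 by -1.05 ± 0.13, Pink1 by -0.99 ± 0.15 and Foxo1 by 0.66 ± 0.10.

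**Figure D4:**
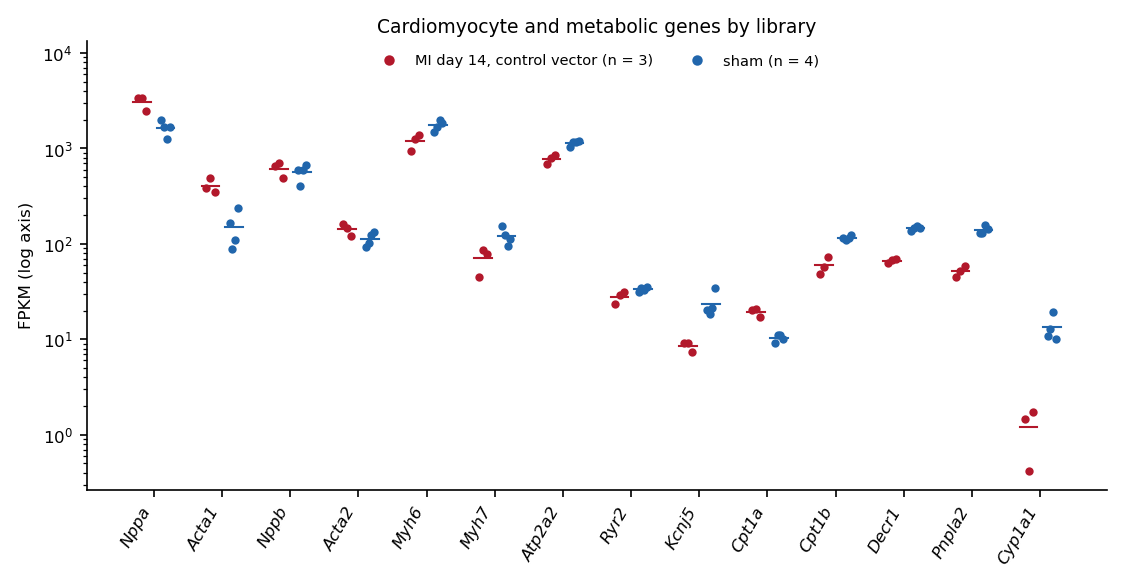
FPKM on a log axis of 14 heart muscle and metabolic genes in each MI day 14 library (red, n = 3) and each sham library (blue, n = 4), with a bar at each group's mean. Nppb and Acta2 overlap between the groups, Nppa, Acta1 and Cpt1a lie above sham, and the other genes lie below it, Cyp1a1 by the widest gap.

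Of 28 tested genes of fatty acid uptake and oxidation 24 fell and 1 rose, with a median of -0.79. Decr1, a reductase for unsaturated fatty acids, was at 62.9, 67.6 and 70.2 FPKM in MI day 14 hearts, against 135, 148, 153 and 148 FPKM in sham (-1.12 ± 0.09, adjusted p = 5.51e-08). Cpt1b, the muscle carnitine acyltransferase that admits fatty acids to mitochondria, was at 48.2, 57.6 and 73.7 FPKM, against 114, 109, 114 and 125 FPKM (-0.96 ± 0.15). Hadha, of the trifunctional protein, Etfdh and Etfa, which pass on the electrons, and Acadm, the medium-chain dehydrogenase, changed by -1.16 ± 0.12, -1.05 ± 0.09, -0.82 ± 0.08 and -0.91 ± 0.09. The rise was Cpt1a, the liver-type acyltransferase, at 20.04, 21.0 and 17.2 FPKM, against 9.12, 11.2, 11.1 and 9.98 FPKM in sham (0.88 ± 0.14). The 2 forms of one enzyme were therefore on opposite sides of sham. The list took 1.44 ± 0.0870% of the summed FPKM in MI day 14 hearts and 2.33 ± 0.0625% in sham hearts (SD, n = 3 and 4).

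Genes that the fatty acid receptor PPAR-alpha controls fell in 8 of 17 cases and rose in 2. The thioesterase Acot2 was at 13.6, 13.9 and 17.6 FPKM in MI day 14 hearts, against 48.7, 53.9, 53.3 and 51.1 FPKM in sham (-1.76 ± 0.14), its near-identical neighbour Acot1 changed by -1.97 ± 0.25, and the split of reads between them is uncertain. Slc25a20, the carnitine carrier, changed by -0.88 ± 0.10. Angptl4, an inhibitor of lipoprotein lipase, was one of the rises (1.25 ± 0.26). Lipolysis and lipid droplet genes rose in 4 and fell in 9 of 23 cases, with 2 and 13 under median-of-ratios scaling and 2 rises without MI library 1 or 4 or sham library 1. Pnpla2, the adipose triglyceride lipase, was at 45.1, 52.1 and 59.2 FPKM, against 131, 131, 157 and 143 FPKM (-1.43 ± 0.16), and G0s2, its inhibitor, at 46.2, 43.6 and 47.3 FPKM, against 143, 108, 197 and 226 FPKM (-1.81 ± 0.22). Lipase and inhibitor were thus lower together, in every MI library. Acacb and Cidea changed by -1.01 ± 0.18 and -0.84 ± 0.14.

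Of 25 tricarboxylic acid cycle and pyruvate entry genes 19 fell and 0 rose, with a median of -0.44. Idh2 was at 181, 222 and 261 FPKM in MI day 14 hearts, against 430, 394, 472 and 436 FPKM in sham (-0.98 ± 0.13), and Sdha, Suclg1 and Fh1 changed by -0.72 ± 0.09, -0.52 ± 0.08 and -0.51 ± 0.07. Complex I genes fell in 19 of 36 cases, with a median of -0.29, in 34 with median-of-ratios scaling and in 12 without MI library 2, and those of complexes III, IV and ATP synthase in 25 of 38, with a median of -0.31, and in 15 without MI library 2. Examples are Ndufa3 (-0.69 ± 0.13), Ndufs1 (-0.61 ± 0.09), Ndufa9 (-0.49 ± 0.07) and Ndufb9 (-0.44 ± 0.08) of complex I, Atp5b (-0.55 ± 0.08) and Atp5a1 (-0.52 ± 0.11) of ATP synthase, Cox7a1 (-0.55 ± 0.12) and Uqcrc2 (-0.35 ± 0.07). Of the 13 mitochondrially encoded genes 5 fell, led by mt-Nd3 (-0.51 ± 0.18), mt-Co1 (-0.45 ± 0.14), mt-Co2 (-0.45 ± 0.12) and mt-Co3 (-0.38 ± 0.14). Without MI library 1 the adjusted p was 0.143 for mt-Nd3, 0.0763 for mt-Co1 and 0.155 for mt-Co3. The count of falls was 1 without MI library 1, 3 without MI library 2, 2 without sham library 1 and 3 without sham library 5. Regulators of mitochondrial content fell in 8 of 18 cases and in 14 with median-of-ratios scaling: Perm1 by -0.93 ± 0.12, Mfn1 by -0.68 ± 0.09, Mfn2 by -0.58 ± 0.10 and Tfb2m by -0.53 ± 0.10. Ppargc1a, the coactivator at the head of this group, was at 19.3, 27.0 and 24.9 FPKM, against 27.98, 53.8, 25.4 and 30.9 FPKM in sham, with overlapping groups (-0.48 ± 0.27, adjusted p = 0.158, or 0.0386 under median-of-ratios scaling).

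Ketone and branched-chain amino acid genes fell in 15 of 25 cases and rose in 2. Slc16a1, a carrier of lactate and ketones, was at 56.9, 56.5 and 56.7 FPKM in MI day 14 hearts, against 93.7, 100, 122 and 117 FPKM in sham (-0.92 ± 0.10), and Acat1 and Aldh6a1 changed by -0.74 ± 0.08 and -0.90 ± 0.10. Bcat1, the cytosolic transaminase, rose at low levels (1.16 ± 0.14). Glycolysis, glycogen and pentose phosphate genes split evenly, with 9 rises and 9 falls among 34, and 14 falls with median-of-ratios scaling. Fbp2, the muscle fructose bisphosphatase, was at 9.05, 9.46 and 11.2 FPKM, against 31.0, 41.8, 39.5 and 29.6 FPKM in sham (-1.78 ± 0.21), and Pdk2, which inhibits pyruvate dehydrogenase, changed by -0.82 ± 0.11. Hk2, the insulin-responsive hexokinase, fell (-0.63 ± 0.10), while the glucose transporter Slc2a1 (0.64 ± 0.12), the lactate exporter Slc16a3 (1.24 ± 0.15) and G6pdx, the entry to the pentose phosphate route (0.67 ± 0.09), rose.

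Stress programmes differed by kind. Secretory pathway and unfolded protein response genes rose in 9 and fell in 6 of 24 cases, with 5 rises under median-of-ratios scaling and 6 without MI library 1. Kdelr3 and Kdelr2, which return escaped proteins to the endoplasmic reticulum, rose (1.73 ± 0.14 and 0.53 ± 0.09), whereas the chaperone genes Dnajb9 and Hyou1 fell (-0.86 ± 0.14 and -0.79 ± 0.14). Hspa5, the main chaperone there, was at 54.5, 115 and 80.2 FPKM in MI day 14 hearts, against 267, 253, 109 and 224 FPKM in sham (-1.33 ± 0.37), and sham library 4 overlapped the MI libraries. Without MI library 1 its adjusted p was 0.0522. Integrated stress response genes rose in 12 and fell in 3 of 18 cases. The rises included Pycr1 (1.19 ± 0.15) and Aldh18a1 (1.11 ± 0.12), both enzymes of proline synthesis, and Mthfd2 of folate metabolism (1.16 ± 0.13). The falls were the transcription factors Ddit3 (-0.58 ± 0.09), Atf3 (-0.44 ± 0.14) and Atf4 (-0.20 ± 0.08, adjusted p = 0.0458), and without MI library 4 a single fall passed (adjusted p = 0.0669 for Atf3 and 0.197 for Atf4). The call of Atf4 was lost without any 1 library other than MI library 1. NRF2 and glutathione genes rose in 6 and fell in 10 of 24 cases, with 3 and 15 under median-of-ratios scaling, with Cat, catalase, at -1.005 ± 0.114, Sod1 at -0.59 ± 0.08 and the extracellular Sod3 at 1.44 ± 0.18. Of 21 heat shock genes 1 rose and 5 fell, or 11 fell with median-of-ratios scaling, with Bag3 at -0.53 ± 0.08, Hspd1 at -0.51 ± 0.07, Hspa9 at -0.51 ± 0.07 and Hspb8 at -0.44 ± 0.09.

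The MI day 14 libraries were compared with the 4 MI day 3 libraries of the same vector in the same fit. This comparison and the one with sham share the MI day 14 libraries, so the values are set side by side. Against day 3, 1347 genes (11.2%) were higher at day 14 and 2208 (18.3%) lower. With mitochondrially encoded genes left out the split was 1968 higher and 1682 lower, so 53.9% of the called genes were higher in place of 37.9%.

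Comp, C1qtnf3, Fmod and Eln were higher at day 14 than at day 3. Comp averaged 2.80 FPKM in sham, 3.55 at day 3 and 78.9 at day 14, a log2 change of 4.31 ± 0.38 from day 3 (adjusted p = 2.83e-07). C1qtnf3 was at 0.258 FPKM at day 3 and 18.8 at day 14 (4.67 ± 0.25), Fmod at 2.29 and 28.3 (3.42 ± 0.33), and Eln at 17.6 and 112 (2.76 ± 0.31). At day 3 Comp lay near its sham level and Eln above it. Small leucine-rich proteoglycans were higher than at day 3 in 10 of 13 cases and lower in 1, cartilage and tendon genes in 10 of 14 with 1 lower, elastic fibre genes in 9 of 19 with 2 lower, and Wnt genes in 15 of 27 with 0 lower. Sfrp2 (2.46 ± 0.28), Prelp (2.39 ± 0.15), Mmp2 (1.95 ± 0.15), Pi16 (1.81 ± 0.16) and Ace (1.24 ± 0.14) were likewise higher at day 14. The fibrillar collagens were not: 1 of 8 was higher and 1 lower. Col1a1 averaged 8.65 FPKM in sham, 288 at day 3 and 146 at day 14 (-0.96 ± 0.20, adjusted p = 0.00136), and Col3a1 13.4, 384 and 285 FPKM (-0.42 ± 0.19, adjusted p = 0.109).

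**Figure D5:**
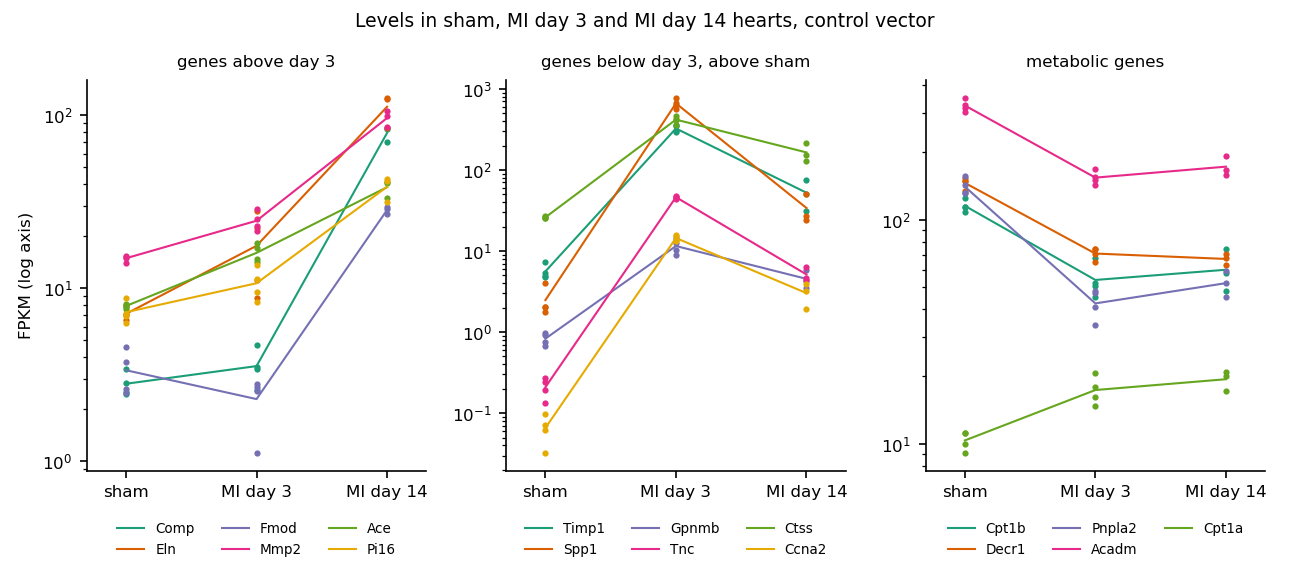
FPKM on a log axis in sham (n = 4), MI day 3 (n = 4) and MI day 14 (n = 3) hearts, all with the control vector, with a point per library and lines through group means. Comp, Eln and Fmod climb after day 3. Spp1, Timp1 and Tnc peak at day 3 and stay above sham at day 14. The metabolic genes drawn lie nearer to their day 3 mean than to their sham mean at day 14.

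Spp1, Timp1 and Tnc were lower at day 14 than at day 3 and above sham. Spp1, osteopontin, averaged 2.48 FPKM in sham, 662 at day 3 and 33.9 at day 14 (-4.34 ± 0.26 from day 3), Timp1 5.61, 324 and 52.3 FPKM (-2.71 ± 0.25), and Tnc 0.209, 46.1 and 5.13 FPKM (-3.06 ± 0.16). Arg1 was at 129 FPKM at day 3 (-5.45 ± 0.41). Against day 3, 14 of 19 macrophage markers, 10 of 13 recruited monocyte genes, 9 of 11 neutrophil genes, 20 of 29 chemokine genes, 23 of 24 replication genes and 26 of 26 mitosis genes were lower. Class II genes differed from these: 0 of 8 were higher and 1 was lower than at day 3. Resident macrophage genes were split against day 3, with 2 of 11 higher, among them Gas6 (0.82 ± 0.13), and 3 lower, among them Mrc1 (-0.78 ± 0.14). Vcan, of the recruited monocyte list, did not pass (-0.08 ± 0.19, limma adjusted p = 0.793). The fatty acid genes Decr1 and Cpt1b did not pass against day 3. Decr1 averaged 146 FPKM in sham, 70.7 at day 3 and 66.9 at day 14 (-0.08 ± 0.09, adjusted p = 0.550), and Cpt1b 115, 53.9 and 59.9 FPKM (0.14 ± 0.15, adjusted p = 0.509). Of 36 complex I genes, 15 were higher at day 14 than at day 3.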

How the data were processed

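RNA from mouse hearts was extracted with Trizol and sequenced on an Illumina instrument, per the labels' protocols. Per the submitters' processing notes, the tools were FastQC 0.11.7, cutadapt 1.17, HISAT2 2.1.0 and StringTie 1.3.3 with the GRCm38 build; their settings are not given in the sources used here. The authors deposited 1 table of FPKM for 12988 protein-coding genes in 18 libraries, and 27 rows that share 13 symbols were left out of the gene lists. Here log2(FPKM + 0.5) was fitted for the 12052 genes that reached 1 FPKM in 3 or more libraries, with limma 3.58.1 (R 4.3.3) as 5 group means over all 18 libraries, with a mean-variance trend and Benjamini-Hochberg adjustment at 0.05. FPKM hold no depth, so precision rests on the spread between libraries, with 1 spread per gene shared by the 5 groups. Standard errors and p-values of the 3 against 4 libraries compared thus also draw on the libraries of the other groups.

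The members and the 70 gene lists were chosen with earlier results of these data known. Named genes were the 20 largest changes in each direction that passed the threshold with at least 5 FPKM in a group, no overlap between groups and a settled symbol, the 4 smallest p-values of each list and 28 constant genes; some of these genes are not reported here, and further list members named beside them were chosen after their values were seen. Summaries and figures used Python 3.11.15 with pandas 2.3.3, scipy 1.17.1 and matplotlib 3.10.9, and reading frames used Biopython 1.88. The alternatives changed the pseudocount to 0.1 or 1, dropped the filter or raised it to 5 FPKM, scaled libraries by median of ratios or to an equal total (with and without mitochondrially encoded genes), fitted the compared groups alone, used eBayes in its robust form, blocked on library number, or left out each library.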

Additional observations from a re-analysis of the deposited data

Results flagged for a closer look

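In 18 of 288 named genes 1 sham library stood apart from the other sham libraries by a gap that exceeds Dixon's 95% limit for 4 values. Chance gives about 1 in 20 groups, and groups of 3, such as MI day 14, were not examined. Sham library 1 was high for Cthrc1 (0.518 FPKM), and low for Mfn2 (107.1 FPKM), Bcat1 (0.0300 FPKM) and Gja1 (31.6 FPKM). Sham library 2 was high for Spp1 (4.08 FPKM), Cd8b1 (0.177 FPKM), C1qb (44.2 FPKM), Trim54 (221.7 FPKM) and Tnnc2 (0.165 FPKM), and low for Sfrp2 (1.69 FPKM), Jchain (0.104 FPKM) and Sod3 (6.47 FPKM). Sham library 4 was high for Pdk2 (93.4 FPKM), and low for Mid1ip1 (25.5 FPKM), Col12a1 (0.0856 FPKM), Bgn (27.5 FPKM) and Hba-a1 (389.3 FPKM). Sham library 5 was high for C1qtnf3 (0.0487 FPKM), which was listed at 0 in the others, as Cd8b1 and Tnnc2 were outside library 2.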

How the results depend on the processing

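Of 294 named genes 287 passed the threshold, 266 kept their call under every alternative and 276 without each library. Leaving out 1 library in turn gave 3932 to 4843 genes higher and 837 to 1097 lower against sham, 1026 to 1499 higher and 1546 to 2230 lower against day 3, and a mitochondrially encoded share between -9.62 and -5.81 percentage points from sham. Under median-of-ratios scaling 2977 genes were higher and 2688 lower, and Nppb turned to -0.14 (adjusted p = 0.632). With 1 library left out, Nppb ranged between -0.028 (without sham library 2, adjusted p = 0.933) and 0.288 (without MI library 4). The filter at 5 FPKM left 7269 genes to test and 2783 higher. Deviations from the group means correlated at 0.0851, -0.107 and 0.113 for MI and sham libraries that share numbers 1, 2 and 4. Pairs with unlike numbers lay between -0.1197 and 0.0836. So few pairs cannot decide whether the library numbers pair the samples. With the number as a replicate block 4708 genes were higher and 976 lower against sham, and 1291 higher and 2149 lower against day 3. Depth is unknown, and exact zeros may be failed estimates.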

Other observations

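Some lists lay outside heart muscle, scar and immunity. Skeletal muscle genes rose in 8 of 12 cases in MI day 14 hearts: Tnnc2, fast troponin C, was at 2.19, 4.15 and 3.56 FPKM, against a listed 0 in 3 sham libraries and 0.165 FPKM in sham library 2, and Mylpf, a fast myosin light chain, was at 3.59, 6.55 and 6.65 FPKM, against 0.840, 0.832, 0.949 and 0.422 FPKM in sham (2.25 ± 0.25, limma adjusted p = 2.24e-06). Of 12 adipocyte genes 7 rose and 1 fell, with 4 rises without MI library 1 or sham library 1. Cfd, adipsin, was at 64.0, 51.6 and 84.3 FPKM, against 7.10, 10.9, 23.1 and 11.2 FPKM in sham (2.40 ± 0.47). Of 11 mesothelial genes 6 rose, and 3 without MI library 1, among them Msln, mesothelin (1.78 ± 0.44).

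Haemoglobin genes overlapped between the groups although 6 of 8 erythroid genes passed. Hba-a1 was at 1135, 2292 and 747 FPKM, against 721, 816, 389 and 778 FPKM in sham, with MI library 2 the highest. Without that library 0 erythroid genes passed, and with median-of-ratios scaling 1 of the 8 passed. Without sham library 4 Hba-a1 lost its call (adjusted p = 0.0543). The near-identical Hba-a1 and Hba-a2 cannot be separated with certainty. Of 17 clock genes 7 rose and 3 fell, with 1 and 5 under median-of-ratios scaling. Nfil3, a repressor of the clock, was at 5.63, 4.25 and 4.28 FPKM in MI day 14 hearts, against 8.46, 10.8, 10.2 and 8.93 FPKM in sham, a log2 change of -0.96 ± 0.17. The time of day of collection is not given in the sources used here.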
